A study of Arabidopsis thaliana with 8 samples.

Results

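Serine carboxypeptidase-like (SCPL) genes were followed through 29 probe sets of the Arabidopsis thaliana ATH1 array, out of 22810 probe sets in all. A probe set was taken when it was assigned to exactly 1 gene and the symbol of that gene began with SCPL or scpl and a number. All 29 were matched in the TAIR10.1 gene table, 1 probe set for each of 29 genes. The table lists 51 genes with an SCPL number as symbol or synonym, 49 of them as symbol, and 22 of the 51 were not analysed. Those with an SCPL symbol have no probe set assigned to them alone here. SNG1 and BRS1 carry the number only as a synonym, so the rule on symbols left them out whether or not they have a probe set. Each of the 29 probe sets carries the plain suffix that ATH1 uses for a set designed on a single gene.

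The RNA came from whole shoots of Col-1 plants (stock N3176) at the stage of 4 rosette leaves. They grew on agar plates in a normal atmosphere with a 16 h photoperiod and were harvested 6 h into the day. Each array received total RNA with a spike mix, meaning RNAs put in on top of the plant's own: 7 arrays carried Spike Mix 1 to Spike Mix 7, and 1 array carried the Reference Spike Mix. The labels give the same plant material for all 8 arrays and name no treatment other than the mix, and they do not say whether the RNA came from separate harvests. Every mix was measured on 1 array, so no difference between mixes has a replicate or a p-value, and an SD given below is the spread over the 8 arrays, which differ in their mix.

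Serine carboxypeptidases are hydrolases with a catalytic serine, aspartate and histidine that cleave the last residue from the carboxyl end of peptides, and many are found in the vacuole or outside the cell. In plants one branch of the family has become acyltransferases, which take an acyl group from a glucose ester instead of cutting a peptide. SNG1 (SCPL8), which makes sinapoylmalate, a UV screen of leaves, and SCPL19 (SNG2), which makes sinapoylcholine in seeds, belong to that branch. BRS1 (SCPL24), a secreted carboxypeptidase, is known as a suppressor of a brassinosteroid receptor mutant. These 3 genes, and the acyltransferase genes scpl10 and scpl17, are among the 22 not analysed, so the best known activities of the family are outside what follows.

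Values are signals on the linear scale of MAS5, in arbitrary units, as deposited. The 25th percentile of all values of the 22746 probe sets that are not manufacturer's controls, 12.9, was used as a floor: lower values were set to it before a ratio or a log2 was taken. Between 73.6% and 77.1% of probe sets exceeded the floor on an array. Signals of different probe sets depend on their probes as well as on the RNA, so levels are set against the floor and against the same probe set on other arrays, not against another gene. The labelled shoots were checked against marker genes. Of 8 leaf genes 4 could be measured, namely RCA, LHCB4.1, LHCB4.2 and PSAE-1. All 4 exceeded the floor on all 8 arrays, with signals between 2415.5 and 4426.8. Of the root markers 3 of 4 were measured, and all 3 exceeded the floor on all 8 arrays as well. PYK10 ran from 838.0 to 1055.8, while EXPA7 and EXPA18, expansins of root hairs, lay between 17.2 and 35.0. Exceeding the floor thus did not separate the leaf markers from the root markers. The flower marker A9 was under the floor on all 8 arrays, and no seed marker could be measured.

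SCPL genes were sorted by the number of arrays on which they exceeded the floor. Of the 29 probe sets, 16 exceeded the floor on all 8 arrays, which is 55.2% beside 66.5% of all non-control probe sets. Another 7 exceeded it on some arrays, and 6 on none, which is 20.7% beside 16.5%. Averaged over the arrays, 13 of the 29 reached 42.5, the median of the table, and 16 lay below it. These 13 are SCPL49, scpl26, scpl25, scpl29, scpl42, SCPL34, scpl20, scpl48, scpl35, scpl46, SCPL45, SCPL27 and scpl50, and the fold counts against the reference array were made on them first.

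**Figure D1:**
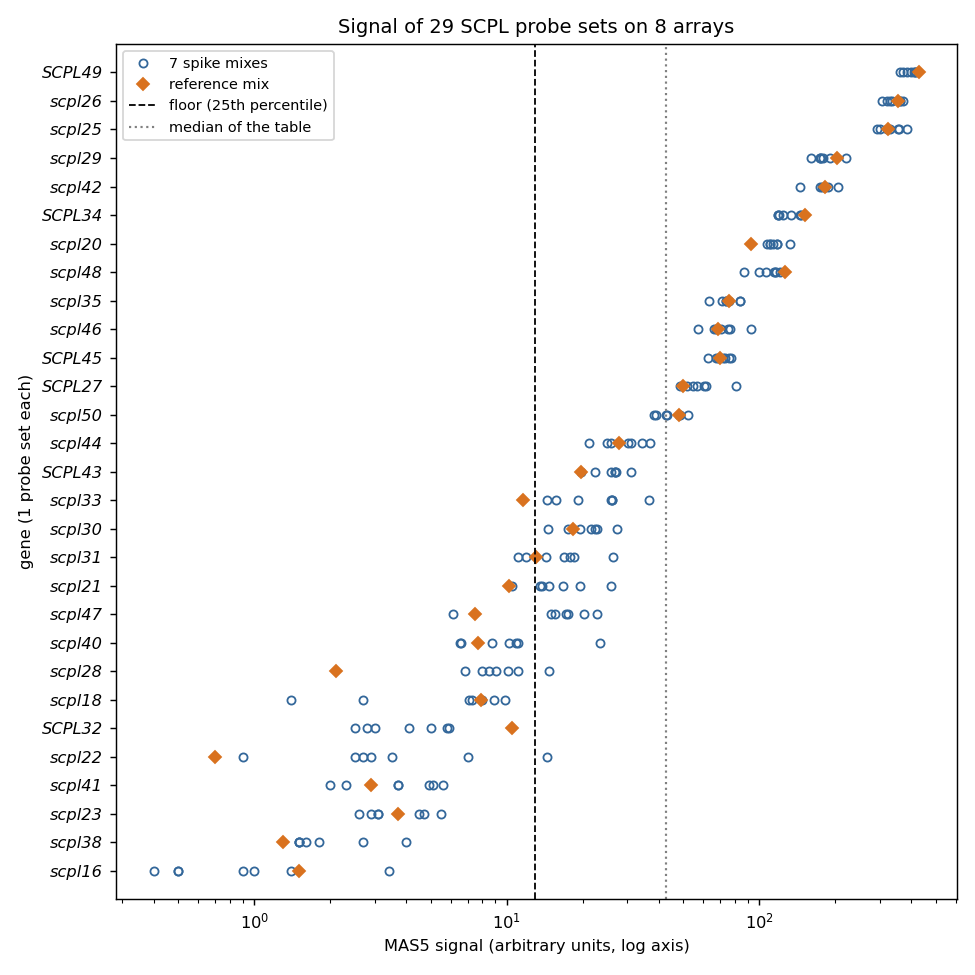
MAS5 signal (arbitrary units, log axis) of each of the 29 SCPL probe sets on each array, ordered by mean signal; open circles are the 7 spike mixes and diamonds the reference mix, with the floor of 12.9 dashed and the median of the table, 42.5, dotted. The upper 13 genes form tight rows above the median, with scpl50 straddling it, and 6 genes lie wholly to the left of the floor.

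SCPL49, which the gene table also names carboxypeptidase Y after the vacuolar enzyme, was measured most evenly of the 13. Its signal was 385.9, 418.8, 398.9, 414.5, 369.2, 361.9 and 409.6 in mixes 1 to 7 and 429.5 on the reference array. The mean was 399 ± 24.2 (SD, n = 8 arrays), and the highest array was 1.19-fold above the lowest. Every mix lay below the reference array, by log2 ratios from -0.04 to -0.25.

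scpl26 was almost as even. It had 305.5, 360.4, 371.3, 335.2, 321.5, 361.4 and 329.7 in mixes 1 to 7 and 355.1 on the reference array, with a mean of 343 ± 23.0 (SD, n = 8 arrays) and a range of 1.22-fold. The mixes lay on both sides of the reference array, with 3 above and 4 below. SCPL45 had 62.4, 77.2, 72.8, 76.0, 71.7, 68.5 and 67.4 in mixes 1 to 7 and 69.9 on the reference array, a range of 1.24-fold. Mix 1 was its lowest array, and the reference array lay in the middle of the others.

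scpl35 had 83.5, 73.7, 73.7, 63.3, 71.1, 84.1 and 75.9 in mixes 1 to 7 and 75.8 on the reference array, a range of 1.33-fold. Mixes 1 and 6 were high and mix 4 was low. On the log2 scale the SD across arrays came to 0.09 for SCPL49, 0.10 for scpl26 and for SCPL45 and 0.13 for scpl35.

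SCPL27 varied most among the 13 on the log2 scale, with an SD of 0.24. Its signal was 60.3, 54.4, 61.7, 48.6, 56.5, 81.0 and 51.5 in mixes 1 to 7 and 49.7 on the reference array. Mix 6 stood above the rest, which spanned 48.6 to 61.7, and its log2 ratio to the reference array was 0.70. The whole range was 1.67-fold, so SCPL27 stayed under 2-fold.

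scpl46 had 92.4, 66.1, 57.1, 76.4, 70.5, 67.5 and 75.4 in mixes 1 to 7 and 68.4 on the reference array. Here mix 1 was the high array, at a log2 ratio of 0.43, and mix 3 the low one, at -0.26. The range was 1.62-fold and the mean 71.7 ± 10.3 (SD, n = 8 arrays).

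scpl48 had 115.8, 86.9, 99.4, 114.2, 116.4, 105.9 and 120.8 in mixes 1 to 7 and 126.8 on the reference array. The reference array was the highest of the 8 and mix 2 the lowest, at a log2 ratio of -0.55. The range was 1.46-fold. scpl50 had 48.2, 48.4, 43.0, 52.1, 39.0, 42.5 and 38.3 in mixes 1 to 7 and 47.9 on the reference array. Mixes 5 and 7 were its low arrays, and it is the one member of the 13 whose arrays fell on both sides of the table's median, 42.5.

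The other 5 of the 13 spanned at most 1.43-fold. scpl25 had a mean of 333 ± 30.3 and ranged from 292.8 to 382.7 (SD, n = 8 arrays). scpl29 had 185 ± 19.4 and was highest in mix 4, at 221.2, and lowest in mix 2, at 160.8. scpl42 had 179 ± 16.8, with mix 6 low at 144.7 and mix 2 high at 205.0.

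SCPL34 had 132 ± 13.7 and was highest on the reference array, at 151.4, with mixes 1, 2 and 6 between 118.3 and 119.1. scpl20 had 113 ± 11.3, with the reference array lowest, at 92.3, and mix 4 highest, at 132.4. Both spreads are over 8 arrays.

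None of the 13 was 2-fold or more from the reference array in any mix, beside 1.23% of the 11367 probe sets that passed the same filter on mean signal. Their largest log2 ratios were 0.70, for SCPL27 in mix 6, and -0.55, for scpl48 in mix 2. None of the 13 spanned 2-fold over the 8 arrays either, beside 2.74% of all probe sets that passed. With so few members a count of 0 lies near either background share and does not set the SCPL genes apart.

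**Figure D2:**
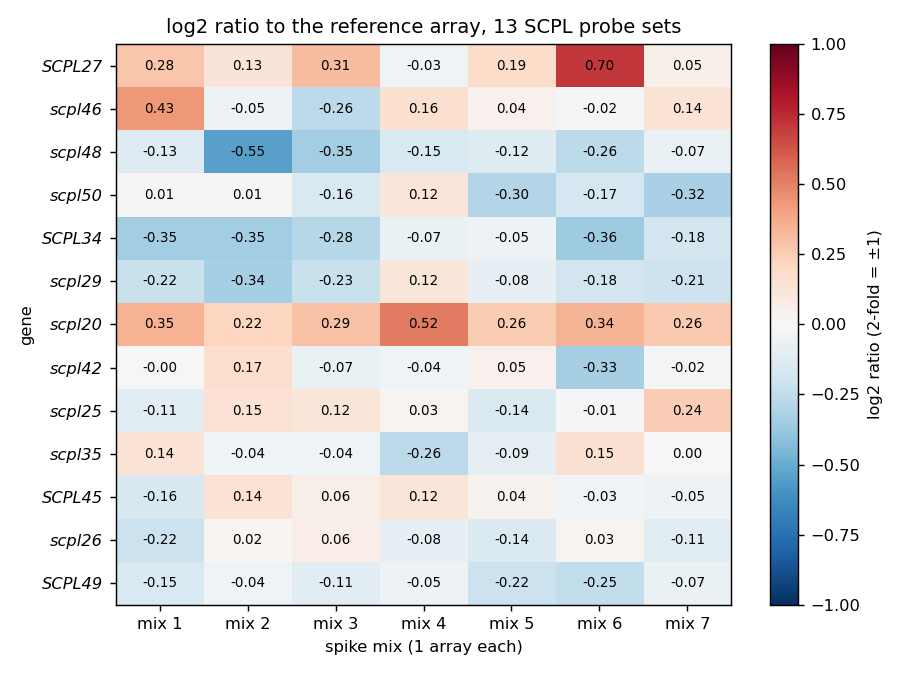
log2 ratio of signal to the reference array for the 13 SCPL probe sets whose mean reached the table's median (rows, ordered by SD) in each of the 7 spike mixes (columns, 1 array each); red is higher and blue lower than the reference array, and the colour scale ends at 2-fold. scpl20 is above the reference in all 7 mixes, scpl48, SCPL34 and SCPL49 are below it in all 7, and no cell reaches 1 or -1.

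The median log2 ratio of the 13 to the reference array was -0.11, 0.01, -0.07, -0.03, -0.08, -0.03 and -0.05 in mixes 1 to 7. Over all 11367 probe sets that passed the filter the medians lay between -0.0041 and 0.0034. Members above the reference array numbered 5, 7, 5, 6, 5, 4 and 5 of 13. Of all probe sets that passed, between 49.0% (mix 5) and 50.5% (mix 3) were above it. All 7 ratios share the 1 reference array, so they are not 7 separate observations. In 3 of the 13, scpl48, SCPL34 and SCPL49, all 7 mixes were lower than the reference array, beside 12.0% of the probe sets that passed. In scpl20 alone all 7 were higher, beside 11.0%. Set against the mean of the other 7 arrays in place of the reference array, the medians were 0.03, -0.03, -0.03, 0.07, -0.02, -0.06 and 0.02 in mixes 1 to 7, which turned the sign in mixes 1, 2, 4 and 7.

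The spread of the 13 was that of other probe sets. Their median SD of log2 signal was 0.15, from 0.09 to 0.24, and the median over all 11367 was 0.14. When non-control probe sets were divided by mean signal into 4 bins of equal size, 7 of the 13 had an SD above the median of their own bin and 6 below it. SCPL45 was the steadiest in this sense, with only 8.71% of its bin having a smaller SD, and SCPL27 the least steady, with 79.4%.

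**Figure D3:**
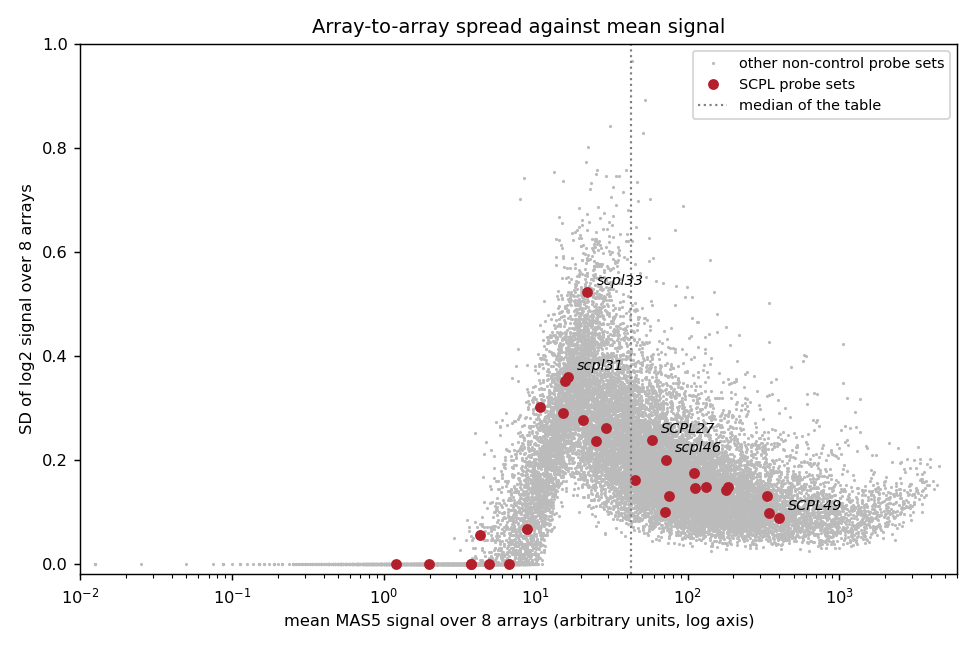
SD of log2 signal over the 8 arrays against mean MAS5 signal (arbitrary units, log axis) for SCPL probe sets (red) and the other non-control probe sets (grey), with the table's median of 42.5 dotted; 18 probe sets with an SD above 1, none of them SCPL, are beyond the axis. The SCPL points lie within the grey cloud at every signal, scpl33 in its upper part, and those under the floor on all arrays sit at 0.

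The 13 did not move as a block from array to array. Over the 8 arrays the median Pearson r of their 78 pairs was -0.05, and 36 of the pairs had r above 0; the median over all pairs of probe sets that passed the filter was 0.00. These values describe 8 arrays that share one plant material and one scaling, and they carry no test. SCPL34 and scpl29 had the highest r, 0.81 (Spearman rho 0.62), both being low in mix 2 and high in mix 4 and on the reference array. scpl46 and scpl26 were the most opposed, with r = -0.89 (rho -0.88): scpl46 was highest in mix 1 and lowest in mix 3, and scpl26 the reverse. One pair in 78 at or above 0.8 is 1.28%, beside 1.57% of all pairs.

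Wide folds were found only among members with a low signal. Of all 29, 3 spanned 2-fold or more over the 8 arrays, which is 10.3% beside 9.19% of all non-control probe sets and so near the background. The 3 are scpl33, scpl31 and scpl21, with mean signals of 21.9, 16.2 and 15.6. The same 3, again 10.3%, were the members at least 2-fold from the reference array in some mix, beside 4.49% of all non-control probe sets. All 3 lie in the second lowest of the 4 bins of mean signal. In that bin 30.4% of probe sets spanned 2-fold or more over the 8 arrays, so shares over all signals understate the background for them.

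scpl33 had 19.1, 14.4, 26.1, 25.9, 26.1, 36.5 and 15.7 in mixes 1 to 7 and 11.6 on the reference array. Mixes 3, 4, 5 and 6 were each at least 2-fold higher than the reference array, and the ratio reached at least 2.83-fold in mix 6, a lower bound because the reference signal lay under the floor. Its SD of log2 signal, 0.52, was larger than that of 96.1% of its bin. Without the array of mix 6 the range was 2.02-fold, and without the reference array 2.53-fold.

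scpl31 had 11.9, 16.9, 18.5, 11.1, 17.8, 26.4 and 14.3 in mixes 1 to 7 and 13 on the reference array. Mix 6 was high, 2.03-fold above the reference array, and mixes 1 and 4 lay under the floor. scpl21 had 10.5, 14.7, 13.8, 25.8, 19.4, 13.5 and 16.7 in mixes 1 to 7 and 10.2 on the reference array. Mix 4 was its high array, exactly 2.00-fold above the floor to which the reference value was raised. Each fold rested on 1 array: scpl31 spanned 1.43-fold without mix 6, and scpl21 spanned 1.5-fold without mix 4. The SD of log2 signal was larger than that of 72.9% of the bin for scpl31 and 70.6% for scpl21.

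By mix, members at least 2-fold above the reference array were set beside all non-control probe sets, whatever their signal. Mix 3 had 1 of 29 (scpl33), beside 0.325%, and mix 4 had 2 (scpl33 and scpl21), beside 1.16%. Mix 5 had 1 (scpl33), beside 0.778%, and mix 6 had 2 (scpl33 and scpl31), beside 1.44%. No member was 2-fold lower in any mix, beside 1.44% of all non-control probe sets, but this depended on the floor. With the floor at the 10th percentile scpl18 had log2 ratios of -1.55 in mixes 4 and 5, and SCPL32 had -1.07 to -1.96 in mixes 1, 2, 3, 4 and 7; both lay under 12.9 on every array. The lower end of the whole table moved with these arrays: the 25th percentile of the array was 14.1, 14.1 and 14.8 in mixes 4, 5 and 6 and between 11.8 and 12.7 on the other 5 arrays, and its part in these ratios was not tested. When the arrays were scaled to a common median, scpl33 was 2-fold above the reference array in mix 6 alone, and after quantile normalization in mixes 3 and 6 alone, so its calls in mixes 4 and 5 held under neither. After the scaling scpl33 spanned 2.71-fold over the arrays, while scpl31 came to 1.96-fold and scpl21 to 1.92-fold. With the floor moved to the 10th or the 40th percentile, 11 or none of the 29 spanned 2-fold. After quantile normalization scpl33 spanned 2.64-fold, scpl31 1.84-fold and scpl21 1.83-fold.

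**Figure D4:**
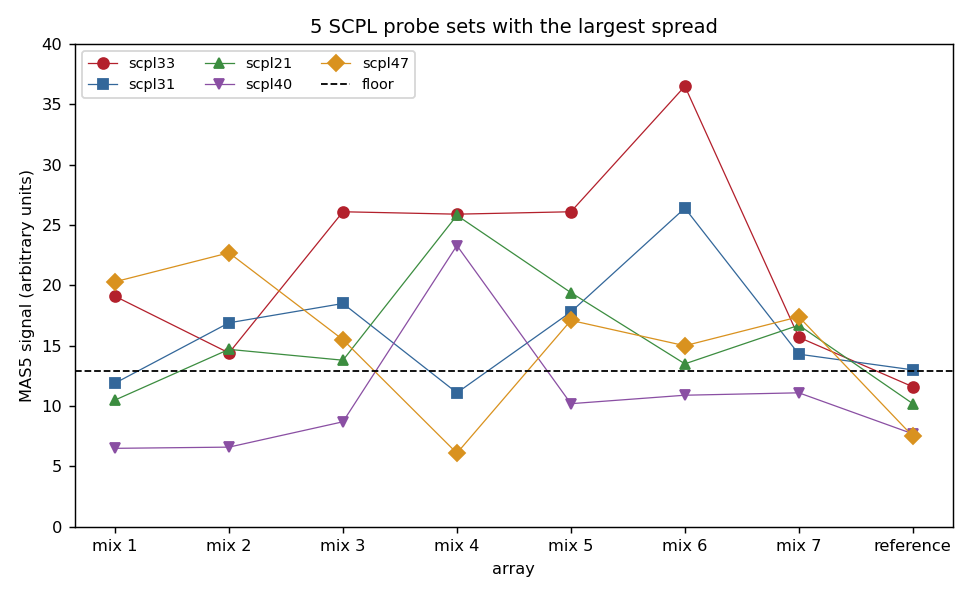
MAS5 signal (arbitrary units) on each of the 8 arrays for the 5 SCPL probe sets with the largest SD of log2 signal, with the floor of 12.9 dashed; the lines only join the points of 1 gene. scpl33 and scpl31 peak in mix 6, scpl21 and scpl40 in mix 4, where scpl47 is at its lowest, and the reference array lies under the floor for 4 of the 5 and at 13 for scpl31.

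Among the other members that crossed the floor, scpl40 exceeded it on 1 array, with 23.3 in mix 4 against 6.5 to 11.1 on the others. scpl47 exceeded it on 6, with 15.0 to 22.7 in mixes 1, 2, 3, 5, 6 and 7, but 6.1 in mix 4 and 7.5 on the reference array. Mix 4 thus held the highest signal of scpl40 and the lowest of scpl47. Against the reference array only scpl40 differed in mix 4. The scpl47 signal was under the floor on both arrays, which gives a log2 ratio of 0. scpl28 and scpl22 exceeded the floor in mix 6 alone, at 14.7 and 14.4. Both values lay below the 25th percentile of the mix 6 array itself, 14.8. After quantile normalization both genes had a range of 1-fold.

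scpl30, scpl44 and SCPL43 exceeded the floor on all 8 arrays but had a mean below the table's median. scpl44 had 29 ± 5.16 and ranged from 21.2 in mix 1 to 37.0 in mix 7 (SD, n = 8 arrays). SCPL43 had 24.9 ± 3.99, with the reference array and mix 3 both lowest at 19.7 and mix 6 highest at 31.0. scpl30 had 20.4 ± 3.87, from 14.6 in mix 5 to 27.2 in mix 4.

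The 6 genes under the floor on every array were scpl41, scpl16, scpl18, SCPL32, scpl38 and scpl23. Their signals ran from 0.4 to 10.5, and the highest was that of SCPL32 on the reference array. Such values give only a bound, and they do not show that the RNA was absent. scpl16 and scpl18, which belong to the acyltransferase branch, were both in this group, with at most 3.4 and 9.8.

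Genes that lie close together on a chromosome did not always share their detection. In the TAIR10.1 table scpl28 and scpl26 are neighbours on chromosome 2 with no gene between them; scpl26 exceeded the floor on 8 of 8 arrays and scpl28 on 1. scpl41 and scpl42 lie on chromosome 5 with 2 genes between them; scpl42 exceeded the floor on 8 of 8 arrays and scpl41 on 0. The neighbours scpl22 and scpl23 on chromosome 2 were alike, on 1 and 0 arrays. scpl16 sits on chromosome 3 beside scpl14, which has no probe set of its own here.

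The pathway that supplies glucose esters to the acyltransferase branch could be read from 5 of 21 listed genes of sinapate ester and phenylpropanoid synthesis. None of the 5 was 2-fold from the reference array in any mix, beside 4.49% of all non-control probe sets. Only 3 of the 5 reached the table's median in their mean, and UGT84A1, under the floor throughout, could not have been counted. HCT, a hydroxycinnamoyl transferase of the phenylpropanoid pathway, had 565 ± 56.4, and REF1, the aldehyde dehydrogenase that makes sinapate, had 443 ± 31.3 (SD, n = 8 arrays). UGT84A3 and UGT84A4 belong to a group of glucosyltransferases that make hydroxycinnamate glucose esters. UGT84A3 was steady, at 68.0 ± 3.51 with a range of 1.16-fold. UGT84A4 had 37.6 ± 6.13 with a range of 1.69-fold.

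A pair of other enzyme families was taken by symbol for comparison, and no test of a difference was made. The shares above the floor on all arrays were 55.2% of the 29 SCPL probe sets, 51.1% of 47 UDP-glycosyltransferases (UGT) and 40% of 20 beta-glucosidases (BGLU), beside 66.5% of all non-control probe sets. Under the floor on all arrays lay 20.7%, 38.3% and 25%. Among members whose mean reached the table's median, the middle SD of log2 signal was 0.15 for SCPL, 0.15 for UGT and 0.12 for BGLU.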

How the data were processed

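RNA of 8 samples was measured on 8 ATH1 arrays with biotin as the label. The authors deposited 1 linear intensity per probe set and array, for which the submitters' processing notes name MAS5; its version and the scanner are not given in the sources used here. After trimming 2% at each end, each array averaged 100.0, and no scaling was added. The number of arrays limits the precision. Gene names came from the platform's annotation and the TAIR10.1 table: 13513 had 1 gene, 503 several, and 8794 are unnamed here. Groups came from the sample titles, 1 array each.

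Values under the 25th percentile were raised to it, log2 was taken, and folds were counted for probe sets with a mean at or above the median. The 64 control probe sets were left out. No p-value was computed. The genes given on all arrays are, of those passing the filter, the 4 with the largest and the 4 with the smallest SD of log2 signal, and every member at least 2-fold from the reference array in a mix. The members, lists and tests were chosen with earlier results of these data known. Alternatives were another scaling, floor, threshold, filter or comparator, and leaving out arrays. The tools were numpy 2.4.6, scipy 1.17.1, pandas 2.3.3, matplotlib 3.10.9 and Python 3.11.15.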

Additional observations from a re-analysis of the deposited data

Results flagged for a closer look

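In SCPL27, 1 array lay far from the other 7: its signal was 81.0 in mix 6 against 48.6 to 61.7 elsewhere, a gap that exceeded the critical value of Dixon's test as a share of the whole log2 range. This was 1 of the 16 members above the floor on all 8 arrays, beside 6.71% of the 15128 non-control probe sets above it on all 8, and chance flags about 1 group in 20. Members with any array under the floor were not examined in this way, because raised values have no spread. No cause was tested.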

How the results depend on the processing

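No paired analysis was possible because every mix has 1 array and the shared replicate number 1 does not link arrays. The count of members above the floor on all arrays was 16, and between 13 and 21 under the alternatives. The 3 members spanning 2-fold became 1 after scaling to a common median, after quantile normalization and without the arrays of mixes 4, 5 and 6; 11 with the floor at the 10th percentile; 0 with it at the 40th; 10 at 1.5-fold; and 0 at 3-fold. Leaving out single arrays gave 2 to 3. Among the 13 brighter members the count of 0 became 2 at 1.5-fold, and the count of 0 from the reference array became 1 at 1.5-fold. With no filter all 29 members were counted, and 3 were 2-fold from the reference array. These were scpl33, scpl31 and scpl21, none of them among the 13. The median SD ran from 0.134 to 0.154 without single arrays. Scaling to a common median brought the median of all probe sets that passed the filter to -0.11 in mixes 4 and 6. It gave the members -0.027, -0.14, -0.14, -0.16, -0.14 and -0.10 in mixes 2 to 7. The distance of the members from that median stayed nearly the same, as with -0.034 in mix 4 and -0.081 in mix 5 before and after. Quantile normalization gave -0.077 in mix 6. With no filter the medians of all 7 mixes were 0. Members raised to the floor on both the mix and the reference array have a ratio of exactly 0. Medians without the filter therefore do not show that a shift was absent. With the filter kept, the medians against the mean of the other 7 arrays were 0.029, -0.026, -0.026, 0.067, -0.021 and 0.016 in mixes 1, 2, 3, 4, 5 and 7. Of 145 ranges of single members, 110 moved by no more than the member's own SD. Many of these could not move. Members above the main floor on all arrays cannot move when the floor is lowered. The 13 brighter members stay above the floor at the 40th percentile, so raising it cannot move them. Members under the main floor on all arrays cannot move when it is raised or when arrays are left out. The count of 110 therefore does not show how steady the ranges were. The cause of the moves was not tested. Signals near the floor limit what 16 of the 29 can show. The alternatives for the range among the 13 brighter members were added after the data were seen.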

Other observations

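A pair of probe sets is assigned to an SCPL gene together with another gene and belongs to no comparison above. The set shared by scpl37 and scpl36, which lie on chromosome 3 with 1 gene between them, had signals of 0.5 to 2.2, and the set shared by AT3G56540 and scpl39 had 0.6 to 8.5. Both were under the floor of 12.9 on all 8 arrays.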
